A study of Mus musculus with 5 samples.

Results

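This report describes 9 chemokine receptor genes, Ccr1, Ccr2, Ccr6, Ccr7, Ccr10, Cxcr3, Cxcr4, Cxcr6 and Cx3cr1, out of the 27998 genes measured, in 5 classes of immune cell from mouse dermis. The genes were taken by symbol, and each symbol matched 1 row of the gene table. Live CD45+ cells had been sorted from digested dermis of C57BL/6 mice, with CD45 (gene Ptprc) as the marker shared by all leukocytes, and their RNA was read by 10x Genomics droplet sequencing with 3' libraries. There were 5 libraries, 1 to a group and none with a replicate. P50_Depil5D came from depilated skin 5 days after hair removal, and its labels do not say whether 50 is the postnatal day of depilation or of collection. The others are untreated skin at postnatal days 45, 50, 63 and 80 (P45, P50, P63 and P80), a time course of telogen, the resting phase of the hair cycle. Neither the number of mice behind a library nor their sex is given.

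Chemokine receptors are G protein-coupled receptors that steer leukocytes along gradients of small secreted proteins, the chemokines, through Gi proteins. Which receptors a cell carries decides which tissue signals it can follow: Ccr7 leads dendritic cells and T cells towards Ccl19 and Ccl21 in lymphatic vessels and lymph nodes, Ccr2 brings monocytes out of the blood towards Ccl2, and Ccr10 and Ccr6 bind Ccl27 and Ccl20, which epidermal cells make. Cxcr3 binds the interferon-induced ligands Cxcl9, Cxcl10 and Cxcl11, Cxcr4 binds Cxcl12, Cxcr6 binds the membrane-bound Cxcl16, Cx3cr1 binds Cx3cl1, and Ccr1 binds inflammatory ligands such as Ccl3 and Ccl5.

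Cells were placed in gates by other genes: a cell entered a gate when at least 2 markers of a class had a UMI (a unique molecular identifier, which marks 1 captured RNA molecule) and when these were at least 2 times as many as the markers of any other class. No receptor described here was a marker. Of 6162 cells kept, 3208 fell in the 5 gates, with 1825 in the T gate, 12 in the NK gate, 802 in the dendritic gate, 48 in the monocyte gate and 521 in the macrophage gate. A further 1100 cells, with keratinocyte markers, served as the background of free RNA, since keratinocytes were taken to lack these receptors. No single marker was required, and 95.2% of T-gate cells had a UMI of a Cd3 gene and 84.5% of macrophage-gate cells a UMI of a C1q gene. Ptprc itself had a UMI in 52.6% of T, 48.5% of dendritic, 44.3% of macrophage and 11.4% of keratinocyte-gate cells. A Cd3 UMI stood in 23.1% of keratinocyte-gate cells, so this gate also held some RNA of T cells.

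The libraries were unequal in depth, with 3290482 UMIs in P50_Depil5D and 7491878, 3242291, 1882756 and 1032621 in P45, P50, P63 and P80. The T gate held 695 cells in P50_Depil5D and 316, 623, 137 and 54 in P45, P50, P63 and P80, the dendritic gate 204 cells and 364, 168, 41 and 25, and the macrophage gate 53 cells and 292, 119, 29 and 28. Barcodes that also occurred in another library made up 180 cells in P50_Depil5D and 12, 199, 196 and 247 in P45, P50, P63 and P80. The 13 keratinocyte markers summed to 167 CPM (counts per 1000000 UMIs of the gate) in the T gate of P50_Depil5D and 329, 148, 600 and 1237 CPM in that of P45, P50, P63 and P80, with the highest sums in P80 and P63.

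The receptors were sparse transcripts. In the 5 gates together Ccr2 had 924 UMIs, Cxcr6 835, Cxcr4 483, Cx3cr1 413, Ccr7 319, Ccr6 123, Cxcr3 122, Ccr10 78 and Ccr1 36. At least 1 UMI of any of the 9 stood in 50.1% of T, 49.3% of dendritic, 51.1% of macrophage, 52.1% of monocyte and 50% of NK-gate cells, against 12.5% of keratinocyte-gate cells. These shares are not at equal depth: the median was 1368 UMIs a cell in T, 2453 in dendritic and 2081 in macrophage-gate cells. Whether the classes would match at equal depth was not tested. Levels are given as CPM of the summed UMIs of a gate and library. Intervals are exact 95% intervals that cover counting error only, not differences between mice.

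Cxcr6, Ccr1 and Ccr2 lie near each other on chromosome 9 (build GRCm38). Genes that may lie between them were not looked up. Cxcr6 lies on the plus strand at chr9:123806475-123811760, Ccr1 on the minus strand at chr9:123962124-123968692 and Ccr2 on the plus strand at chr9:124101950-124113557, with gaps of 150 kb and 133 kb between them. Cx3cr1 lies on the same chromosome, on the minus strand at chr9:119901616-120069879. The promoters of Cxcr6 and Ccr1 are shown because these nearby genes stood in opposite gates, Cxcr6 in the T gate and Ccr1, at low counts, in the macrophage gate. Each is the RefSeq sequence of GRCm38.p6 in the direction of the gene, at chr9:123806227-123806474 on the plus strand for Cxcr6 and chr9:123968695-123968942 on the minus strand for Ccr1. Capitals mark GAGGAA, the PU box, which is the form of ETS-family site named for the myeloid factor PU.1. They also mark TGTGGT, the core of RUNX sites, which reads ACCACA on the other strand. Both motifs were searched on both strands. The shorter GGAA, which stands in both windows, was not counted.
Cxcr6 promoter: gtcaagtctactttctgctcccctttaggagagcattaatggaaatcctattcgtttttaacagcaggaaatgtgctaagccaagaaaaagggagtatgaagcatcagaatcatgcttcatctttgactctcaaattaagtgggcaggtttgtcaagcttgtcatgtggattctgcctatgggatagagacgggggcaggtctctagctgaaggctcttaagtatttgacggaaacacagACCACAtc
Ccr1 promoter: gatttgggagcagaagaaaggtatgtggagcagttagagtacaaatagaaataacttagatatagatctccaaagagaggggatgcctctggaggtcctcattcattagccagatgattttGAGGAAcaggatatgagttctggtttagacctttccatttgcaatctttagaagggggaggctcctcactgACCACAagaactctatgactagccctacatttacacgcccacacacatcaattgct
GAGGAA occurred 1 time in the Ccr1 window and 0 times in the Cxcr6 window, and was in 23.0% of 32851 mouse promoter windows of the same table. The RUNX core occurred 1 time in each, and was in 13.97% of all windows. These matches describe the letters and are not evidence of binding.

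Cxcr6 was highest in the T gate. Its level was 277 CPM in the T gate of P50_Depil5D, and 227, 269.6, 397 and 305 CPM in that of P45, P50, P63 and P80, which is 295 ± 63.4 CPM (SD, n = 5 libraries). In the dendritic gate it was 1.94 CPM in P50_Depil5D and 7.50, 8.22, 10.7 and 23.1 CPM at the 4 ages, and in the macrophage gate no library was above 8.41 CPM. The groups did not overlap, and T cells held 39.9 times the dendritic level (interval 24.0 to 71.6) and 35.4 times the macrophage level (18.6 to 77.7) over the pooled libraries. After every cell was thinned to 1000 UMIs, so that depth could not set the share, 22.01% of 1522 T-gate cells kept a Cxcr6 UMI (19.95 to 24.2), against 0.924% of keratinocyte-gate cells. The dendritic share of 0.779% and the macrophage share of 0.629% were at that background. Unthinned, the shares were 29.2% of T cells, at a median of 1368 UMIs a cell, and 2% of keratinocyte-gate cells, at a median of 2518.

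The comparison of each gate with the mean of the other 4 was tested on the summed UMIs with edgeR's quasi-likelihood test, with library as a term and Benjamini-Hochberg adjustment over 4413 genes. Of the 9 receptors 6 passed the filter on low counts, which left out Ccr6, Cxcr3 and Ccr10. In the T gate Cxcr6 was higher, by a log2 fold of 5.54 (SE 0.44, edgeR adjusted p = 1.51e-12), and Ccr2 lower, by a log2 fold of -1.17 (SE 0.43, edgeR adjusted p = 0.0494). For comparison, 18.9% of all genes tested were higher in the T gate and 1.13% lower. In the dendritic gate Ccr7 was the 1 receptor called, higher, beside 16.3% of all genes (1.34% were lower). In the macrophage gate Cxcr4 was the 1 receptor called, higher, beside 14.3% of all genes (1.16% were lower). None of the 6 was called by edgeR in the monocyte gate, where the smallest unadjusted p was 0.0542, or in the NK gate, where it was 0.200, and DESeq2 called none in either, though it gave 5 of the 6 no adjusted p in the monocyte gate. Of all genes, 1.95% were higher and 0.181% lower in the monocyte gate, and 0.408% higher and 2.76% lower in the NK gate.

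The NK gate had enough cells for a sum in P50 alone, and the monocyte gate in 3 libraries, so these 2 gates weigh on every contrast through few cells. The contrasts were therefore repeated with the T, dendritic and macrophage gates only, which had a sum in all 5 libraries, a choice made after seeing the data. Over 3192 genes, of which 5 receptors, the T gate then had Cxcr6 higher (29.3% of all genes were) and Ccr2, Ccr7 and Cxcr4 lower (27.7% were). The dendritic gate had Ccr7 higher (17.6% were) and Cxcr6 and Cx3cr1 lower (15.1% were). The macrophage gate had Ccr2 and Cxcr4 higher (18.0% were) and Cxcr6 lower (12.2% were). Of these calls Cxcr6 in dendritic cells (log2 fold -0.46) and in macrophages (-0.49) had an edgeR adjusted p of 0.984 each in the fit of 5 gates.

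Cxcr3, Ccr6 and Ccr10, receptors of activated and skin-homing T cells, were also highest in the T gate, at 1 order of magnitude less than Cxcr6. Ccr6 was at 19.3 CPM in the T gate of P50_Depil5D and at 69.5, 27.8, 73.8 and 15.3 CPM in that of P45, P50, P63 and P80. It had 4 UMIs in the whole dendritic gate, all from P45, and 4 in the macrophage gate. Every library's T gate was above its dendritic and macrophage gates. The T level was 21.3 times the dendritic level (8.09 to 79.4) and 11.3 times the macrophage level (4.31 to 42.3).

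Ccr10 was at 19.3 CPM in the T gate of P50_Depil5D and at 27.5, 18.9, 69.2 and 30.5 CPM in that of P45, P50, P63 and P80. The dendritic gate had no Ccr10 UMI in 802 cells. Against a floor of 3 counts over the whole dendritic gate, 1.36 CPM, the T level was at least 18.5-fold higher. The macrophage gate had 3 UMIs, and the T level was 9.86 times the macrophage level (3.25 to 48.9). After thinning, 2.43% of T-gate cells kept a Ccr10 UMI and 3.15% a Ccr6 UMI, both against 0.308% of keratinocyte-gate cells.

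Cxcr3 was at 23.2 CPM in the T gate of P50_Depil5D and at 52.4, 26.7, 64.6 and 30.5 CPM in that of P45, P50, P63 and P80. It was above the dendritic gate in 5 of 5 libraries, at 8.55 times the level (4.34 to 19.2). It was above the macrophage gate in 4 of 5, since P80 macrophages had 1 UMI, which makes 35.4 CPM. The thinned shares were 2.50% of T, 1.26% of macrophage, 0.390% of dendritic and 0.205% of keratinocyte-gate cells.

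With no filter on low counts all 9 receptors entered the fit of the 5 gates, over 15736 genes. The T gate then had Ccr6 (log2 fold 5.25, edgeR adjusted p = 1.25e-07), Ccr10 (5.16, edgeR adjusted p = 4.85e-06) and Cxcr3 (4.32, edgeR adjusted p = 0.000490) higher beside Cxcr6, and 8.20% of all genes were higher there. Among the T, dendritic and macrophage gates alone and with no filter the log2 folds were 3.99 for Ccr6, 4.76 for Ccr10 and 2.40 for Cxcr3, all called, beside 14.7% of all genes. The fitted folds of Ccr6 and Ccr10 rest on gates at or near 0, so the ratios of CPM above are the firmer sizes.

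**Figure D1:**
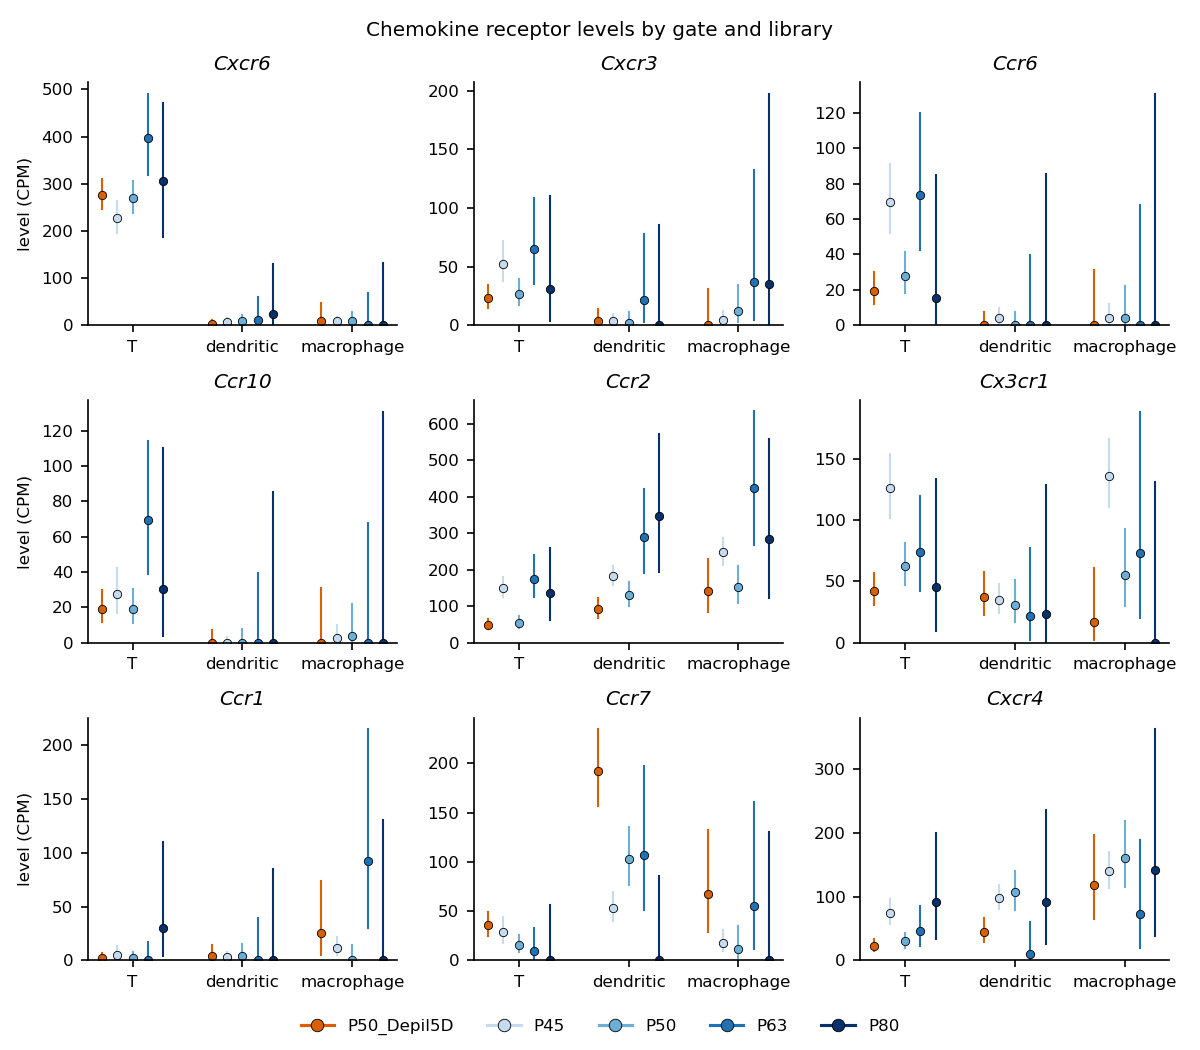
Level of each receptor (vertical axis, CPM, linear from 0) in the T, dendritic and macrophage gates, with 1 point for each library and its exact 95% counting interval. Cxcr6, Ccr6 and Ccr10 stand above the other gates in every library's T gate, Ccr7 is highest in the dendritic gate of 4 libraries, and Cxcr4 is highest in the macrophage gate of all 5; the wide intervals are those of P63 and P80.

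Ccr2, the receptor of inflammatory monocytes and of the macrophages and dendritic cells that descend from them, was the most counted of the 9 and was found in every gate. T cells had 49.2 CPM in P50_Depil5D and 151, 54.6, 175 and 137 CPM in P45, P50, P63 and P80. Dendritic cells had 91.4 CPM in P50_Depil5D and 182, 129, 290.0 and 347 CPM at those ages. Macrophages had 143 CPM in P50_Depil5D and 249, 153, 423 and 283 CPM. Within each of the 5 libraries T cells were lowest, although the gates' ranges overlap across libraries. Over the pooled libraries the T level was 0.560 of the dendritic level (0.475 to 0.660) and 0.389 of the macrophage level (0.326 to 0.463), and the dendritic level was 0.693 of the macrophage level (0.589 to 0.817).

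Monocytes, in which Ccr2 is best known, had 38 UMIs in 48 cells, or 351 CPM (248 to 481), and 36.2% of those thinned kept a UMI. The 12 NK-gate cells held 12 UMIs, or 498 CPM (257 to 869). The thinned shares were 16.4% of macrophage, 13.8% of dendritic, 6.90% of T and 1.64% of keratinocyte-gate cells. Among the 3 gates Ccr2 was lower in T cells by a log2 fold of -1.25 (SE 0.18, edgeR adjusted p = 5.58e-06) and higher in macrophages by 0.81 (SE 0.18, edgeR adjusted p = 0.00203). Both calls held without each library in turn, but with no filter the macrophage call was lost (edgeR adjusted p = 0.0762), and in the fit of 5 gates Ccr2 was not called in macrophages (log2 fold 0.59, edgeR adjusted p = 0.252). The call in T cells against all 4 other gates was lost in 7 of 24 alternatives.

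Within the macrophage gate Ccr2 went with cells that lacked markers of resident dermal macrophages. Cells with no UMI of Folr2 or Cd163, the folate receptor beta and scavenger receptor genes of resident macrophages, had 296 CPM over 243 cells, against 175 CPM over the 278 cells with one. They were higher in 5 of 5 libraries, with 224 and 76.5 CPM in P50_Depil5D, 307 and 207 CPM in P45, 247 and 78.3 CPM in P50, 556 and 375 CPM in P63, and 440.4 and 81.0 CPM in P80. Cells with more UMIs are more likely to show a marker, and the part of depth in this split was not tested.

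Cx3cr1, the fractalkine receptor of patrolling monocytes, macrophages and cytotoxic lymphocytes, was shared by T cells and macrophages. T cells had 42.5 CPM in P50_Depil5D and 126, 62.4, 73.8 and 45.8 CPM in P45, P50, P63 and P80. Macrophages had 16.8 CPM in P50_Depil5D and 136, 55.1, 73.5 and 0 CPM. Dendritic cells stayed between 21.5 and 36.9 CPM, below the T gate in every library, and the T level was 2.15 times the dendritic level (1.64 to 2.84). The 19 dendritic UMIs of P50_Depil5D came from 3 cells, and 32 keratinocyte-gate UMIs of that library from 5 cells, so single cells weigh on this gene. After thinning 6.08% of macrophage, 5.45% of T, 1.43% of dendritic and 0.924% of keratinocyte-gate cells kept a UMI, which puts the dendritic share near the background. Among the 3 gates Cx3cr1 was lower in dendritic cells by a log2 fold of -0.96 (SE 0.29, edgeR adjusted p = 0.0174). In the fit of 5 gates it had the opposite sign there and was not called (log2 fold 1.17, edgeR adjusted p = 0.774). The call among 3 gates was lost without P50 or P63, with edgeR adjusted p up to 0.0628, and the gene did not pass the filter without P45. With no filter it was lost too (edgeR adjusted p = 0.0833).

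Ccr1, a receptor of monocytes and macrophages, had 16 of its 36 UMIs in the macrophage gate. The macrophage level was 25.2 CPM in P50_Depil5D and 11.1, 0, 91.9 and 0 CPM in P45, P50, P63 and P80, and the 91.9 CPM were 5 UMIs of 1 cell. Pooled, T cells were at 3.36 CPM, dendritic cells at 3.18 CPM and macrophages at 13.6 CPM, and the T level was 0.247 of the macrophage level (0.100 to 0.578). Of the 10 T UMIs 6 were in regulatory cells. Ccr1 was called higher in macrophages among the 3 gates with no filter (log2 fold 1.85, edgeR adjusted p = 0.0257), where 5.84% of all genes were, and in no gate in the fit of 5 gates. After thinning 1.26% of macrophage and 0.103% of keratinocyte-gate cells kept a Ccr1 UMI.

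Ccr7, the receptor for leaving tissue through lymph, was highest in the dendritic gate. T cells had 35.7 CPM in P50_Depil5D and 28.8, 15.6, 9.23 and 0 CPM in P45, P50, P63 and P80. Dendritic cells had 192 CPM in P50_Depil5D and 53.4, 103, 107 and 0 CPM, and macrophages 67.3 CPM in P50_Depil5D and 18.1, 11.8, 55.1 and 0 CPM. P80 had no Ccr7 UMI in any of these 3 gates, where a count of 0 allows up to 69.3 CPM in the dendritic gate (3 counts). The dendritic level was the highest of the 3 in the other 4 libraries, and 4.26 times the macrophage level (2.85 to 6.62). The T level was 0.257 of the dendritic level (0.195 to 0.336). In edgeR's test of 5 gates Ccr7 was higher in dendritic cells by a log2 fold of 5.25 (SE 0.84, edgeR adjusted p = 1.95e-05), and among 3 gates by 2.23 (SE 0.29, edgeR adjusted p = 2.01e-05). In T cells the same 2 fits gave opposite signs: 2.03 with an edgeR adjusted p of 0.590 against all 4 gates, where NK and monocyte sums held no Ccr7, and -1.50 with an edgeR adjusted p of 0.00146 against dendritic cells and macrophages. The thinned shares were 3.90% of dendritic, 1.89% of macrophage, 1.51% of T and 0.103% of keratinocyte-gate cells.

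Cxcr4, whose ligand Cxcl12 comes from fibroblasts and other stroma, was highest in macrophages in all 5 libraries. T cells had 22.2 CPM in P50_Depil5D and 74.7, 30.1, 46.1 and 91.6 CPM in P45, P50, P63 and P80. Dendritic cells had 44.7 CPM in P50_Depil5D and 98.4, 107, 10.7 and 92.5 CPM, and macrophages 118 CPM in P50_Depil5D and 140.3, 161, 73.5 and 142 CPM. The order of dendritic and T cells changed between libraries, with T cells above in P63 alone. Pooled, the T level was 0.296 of the macrophage level (0.232 to 0.376) and the dendritic level 0.601 of it (0.485 to 0.747).

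Against the other 4 gates Cxcr4 was higher in macrophages by a log2 fold of 1.15 (SE 0.38, edgeR adjusted p = 0.0320), and among 3 gates by 1.19 (SE 0.28, edgeR adjusted p = 0.00307). The call against 4 gates was lost in 7 of 24 alternatives, among them DESeq2 and the fits without P50 or P50_Depil5D, while that among 3 gates held without each library. In T cells Cxcr4 was lower among the 3 gates by a log2 fold of -1.41 (SE 0.28, edgeR adjusted p = 0.000241) and was not called against 4 (edgeR adjusted p = 0.126). The thinned shares were 9.85% of macrophage, 6.49% of dendritic, 3.35% of T and 1.44% of keratinocyte-gate cells.

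In the 2 smallest gates the other receptors rest on few UMIs. The 12 NK-gate cells had 3 UMIs of Cxcr4, or 124 CPM (25.7 to 364), 1 of Ccr7 and none of the remaining 6 beside Ccr2, which at 3 counts in 24113 UMIs allows up to 124 CPM each. The monocyte gate had 8 UMIs of Cxcr4, or 73.8 CPM (31.9 to 145), 6 of Cx3cr1, or 55.4 CPM (20.3 to 120.5), and 3 each of Cxcr6 and Ccr1, or 27.7 CPM (5.71 to 80.9).

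The T gate was a mixture of cells that differed in their receptors. Subgates were set by further markers: regulatory (Foxp3, Ctla4, Il2ra, Ikzf2, Tnfrsf4), 179 cells; gamma-delta 17 (Il17a, Il17f and others of interleukin-17-making T cells), 38 cells; Ctla2a (Ctla2a, Ctla2b, Fcer1g, Cd7, Xcl1), named by its leading gene, 1267 cells; and CD4 or CD8, 25 cells with a Cd4, Cd8a or Cd8b1 UMI and too few other markers. The remaining 316 cells had no subgate. T cell receptor constant genes are not used here, so the subgates rest on these markers alone.

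Of the 3 larger subgates, the gamma-delta 17 cells had the highest pooled CPM of Cxcr6 and the regulatory cells the lowest. Gamma-delta 17 cells had 762 CPM in P50_Depil5D and 685, 421, 575 and 826 CPM in P45, P50, P63 and P80, the last from 1 cell. Regulatory cells had 54.8 CPM in P50_Depil5D and 131, 138, 0 and 222 CPM. Ctla2a cells had 249 CPM in P50_Depil5D and 178, 271, 381 and 202 CPM, which is between the other two in 4 of 5 libraries and below the regulatory cells in P80. The 25 CD4 or CD8 cells had 466 CPM (285 to 720), against 657 CPM (488 to 866) in the gamma-delta 17 cells, so these intervals overlap. The gamma-delta 17 level was above the regulatory level in 5 of 5 libraries, at 6.32 times (3.98 to 10.2). Between subgates edgeR could test Cxcr6 alone of the 9, among 819 genes. It was lower in regulatory cells by a log2 fold of -1.98 (SE 0.40, edgeR adjusted p = 0.00121), as were 2.69% of the genes, and not called in gamma-delta 17 cells (log2 fold 1.61, edgeR adjusted p = 0.0568). After thinning 47.8% of CD4 or CD8 cells (11 of 23), 41.7% of gamma-delta 17 and 8.50% of regulatory cells kept a UMI, so that the regulatory cells were still above the background of 0.924%.

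Against the Ctla2a cells, the regulatory cells held more of Ccr2, Ccr10 and Cxcr4. Ccr2 was at 241 CPM there in P50_Depil5D and at 153, 160, 274 and 222 CPM in P45, P50, P63 and P80, against 13.2 CPM in the Ctla2a cells of P50_Depil5D and 151, 32.9, 106 and 50.4 CPM in those of the 4 ages. Regulatory cells were higher in 5 of 5 libraries, at 3.37 times (2.42 to 4.65), though in P45 by 153 against 151 CPM. Ccr10 was at 87.8 CPM in regulatory cells, 7.78 times the 11.3 CPM of Ctla2a cells (4.30 to 14.2), and higher in 4 of 5 libraries, P80 having none. The CD4 or CD8 cells had 117 CPM of Ccr10, on 5 UMIs (37.9 to 272). Cxcr4 was at 87.8 CPM in regulatory cells, 3.89 times the 22.6 CPM of Ctla2a cells (2.32 to 6.39), and higher in 5 of 5, and at 118 CPM in gamma-delta 17 cells, on 9 UMIs (54.1 to 225).

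Cx3cr1 was higher in the Ctla2a cells than in the regulatory cells. The Ctla2a cells had 52.7 CPM in P50_Depil5D and 176, 77.8, 116 and 75.6 CPM in P45, P50, P63 and P80, against 0 CPM in the regulatory cells of P50_Depil5D and 43.6, 21.3, 0 and 0 CPM. The Ctla2a level was 4.78 times the regulatory level (2.15 to 13.2), and the higher in 5 of 5 libraries. With no filter, over 13857 genes, edgeR called Cx3cr1 higher in Ctla2a cells (log2 fold 1.98, SE 0.49, edgeR adjusted p = 0.00174), beside 8.85% of all genes. In regulatory cells it called Ccr2 higher (1.71, SE 0.46, edgeR adjusted p = 0.0172), beside 1.35% of all genes, and Cxcr6 lower (-1.67, SE 0.41, edgeR adjusted p = 0.00501), beside 0.0794%. Ccr10 and Cxcr4 were not called there (edgeR adjusted p = 0.180 and 0.487).

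Ccr6, a receptor of interleukin-17-making T cells and of regulatory T cells, was at 197 CPM in gamma-delta 17 cells, but all 15 of those UMIs came from P45, where the level was 331 CPM. The other 4 libraries had none in their 19 gamma-delta 17 cells. The regulatory level was 55.3 CPM and the Ctla2a level 10.8 CPM. The 316 T cells with no subgate held 61 of the 115 T-gate UMIs, at 119 CPM, with UMIs in all 5 libraries. Ccr6 was not called in gamma-delta 17 cells with no filter (log2 fold 3.88, edgeR adjusted p = 0.0696). Of the 90 T cells with a Ccr6 UMI 47 also had a Cxcr6 UMI, where the product of the shares would give 26.2 cells. This is a description over cells of 5 libraries, and deeper cells show both genes more often.

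Cxcr3, by contrast, had no UMI in the gamma-delta 17 cells, which at 3 counts in 76079 UMIs allows up to 39.4 CPM, and stood at 34.3 CPM in Ctla2a and 32.5 CPM in regulatory cells. T cells with at least 2 NK markers numbered 57, of which 30 came from P45. Pooled, they had 86.6 CPM of Cxcr3, against 32.2 CPM in the other T cells, and 226 CPM of Cx3cr1, against 64.0 CPM. They had 113 CPM of Cxcr6, against 280 CPM in the other T cells, a ratio of 0.405 (0.235 to 0.653). Without P45, a choice made after seeing the data, the ratio of Cxcr6 was 0.664 (0.352 to 1.14) and that of Cxcr3 2.69 (0.843 to 6.65), so both intervals then spanned 1, and that of Cx3cr1 was 4.24 (2.24 to 7.43).

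**Figure D2:**
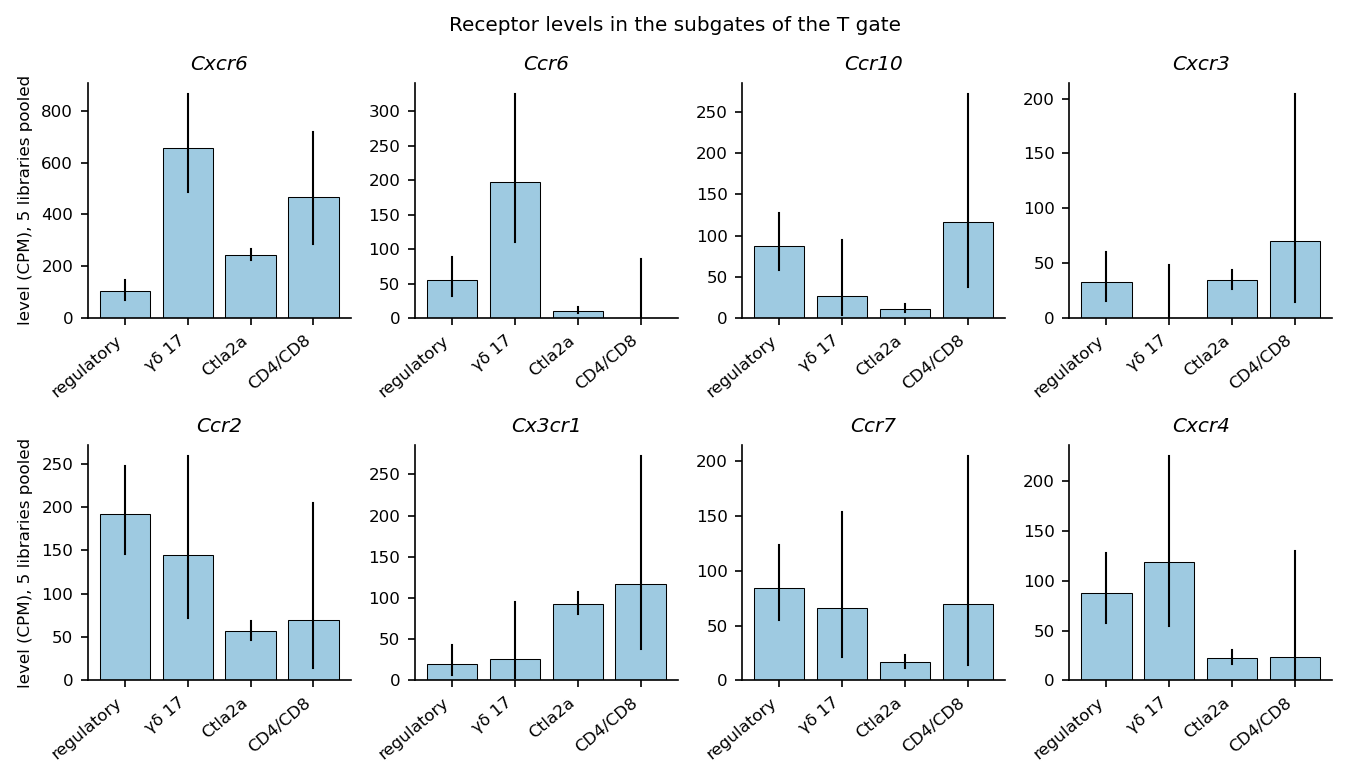
Pooled level of 8 receptors (vertical axes, CPM, each from 0) in the 4 subgates of the T gate; bars are the sums over 5 libraries and lines their exact 95% counting intervals. Cxcr6 falls to 104 CPM in the regulatory cells, where Ccr2, Ccr10, Cxcr4 and Ccr7 are above the Ctla2a cells. Of these, Ccr7 was higher in 3 of 5 libraries. Cx3cr1 is at 93.2 CPM in the Ctla2a cells. The CD4 or CD8 bars rest on 25 cells.

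In the dendritic gate Ccr7 was held by a very small set of cells. The mature subgate (Fscn1, Cacnb3, Il4i1, Socs2 and others, genes of dendritic cells that are leaving tissue) had 18 cells, which carried 118 of the 216 dendritic Ccr7 UMIs. Their level was 3620 CPM in P50_Depil5D, and 912, 2554 and 3696 CPM in P45, P50 and P63, and P80 had no such cell. Type 2 cells (Cd209a, Mgl2, Clec10a and others), 643 in number, had 86.9 CPM in P50_Depil5D and 41.0, 45.1, 0 and 0 CPM in P45, P50, P63 and P80. Type 1 cells (Clec9a, Cadm1, Tlr3 and others, the cross-presenting dendritic cells) had 1 UMI in 70 cells. The mature level was 51.0 times the type 2 level (38.3 to 68.1) and, on that 1 UMI, 599 times the type 1 level (105 to 23840).

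Of the mature cells 55.6% kept a Ccr7 UMI after thinning (30.8 to 78.5, n = 18 cells), the highest share of any receptor in any gate or subgate of at least 18 cells. Between dendritic subgates, over 1100 genes, edgeR could test Ccr7 and Ccr2. Only sums of at least 5 cells entered. Mature cells had such sums in P45, P50 and P50_Depil5D alone (6, 5 and 6 cells). Type 1 cells had them in P45 and P50_Depil5D alone (46 and 18 cells). Ccr7 was higher in mature cells by a log2 fold of 8.32 (SE 0.51, edgeR adjusted p = 1.33e-26), as were 13.0% of the genes. It was lower in type 1 cells by a log2 fold of -8.95 (SE 1.10, edgeR adjusted p = 2.17e-10), as were 9.73% of the genes, a fold that depends on how a level near 0 is fitted. Within the type 2 cells Ccr7 went with Ccl22, a chemokine of activated dendritic cells: the 31 cells with a Ccl22 UMI had 259 CPM, and the 612 without 35.3 CPM. Of the 31 cells 20 came from P45, with 273 against 18.5 CPM. P50 and P50_Depil5D had 5 each, with 247 against 32.8 CPM and 244 against 81.8 CPM. The 1 such cell of P63 had no Ccr7 UMI, and P80 had no such cell. The part of depth in this split was not tested.

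Among the dendritic subgates, nearly all UMIs of Ccr2, Cxcr4 and Cx3cr1 were in type 1 and type 2 cells. The mature cells had 1 UMI of Ccr2 and 1 of Cxcr4, 21.4 CPM each, and none of Cx3cr1. Type 2 cells had 160.2 CPM of Ccr2, 89.5 CPM of Cxcr4 and 38.8 CPM of Cx3cr1, and type 1 cells 127, 80.3 and 4.23 CPM of the same genes. With no filter, over 13076 genes, edgeR called Ccr2 (log2 fold 2.22, edgeR adjusted p = 0.0101) and Cx3cr1 (4.76, edgeR adjusted p = 0.0130) higher in type 2 cells, beside 4.63% of all genes. The fold of Cx3cr1 is against subgates at or near 0. After thinning 1.46% of type 2 cells kept a Cx3cr1 UMI (0.668 to 2.75), near the 0.924% of keratinocyte-gate cells. In mature cells Ccr2 was at a log2 fold of -2.44 in the filtered fit (edgeR adjusted p = 0.144) and was not called.

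**Figure D3:**
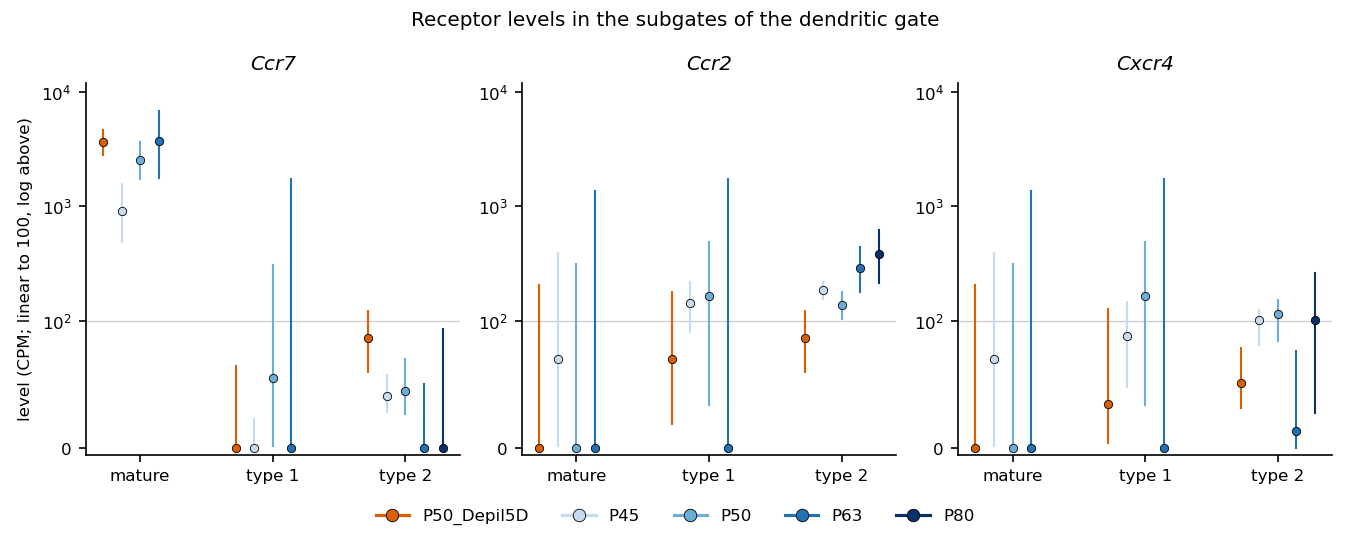
Levels of Ccr7, Ccr2 and Cxcr4 (vertical axis, CPM, linear to 100 and logarithmic above the grey line) in the mature, type 1 and type 2 dendritic subgates, with 1 point for each library and its exact 95% counting interval. Ccr7 lies between 912 and 3696 CPM in the mature cells of 4 libraries and at or below 86.9 CPM in type 2 cells. Nearly all Ccr2 and Cxcr4 UMIs of these subgates are in type 1 and type 2 cells. P80 had no mature or type 1 cell.

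Depilation starts a new hair growth phase, and P50_Depil5D against P50 asks how the immune cells of such skin differ from resting skin. Each side is 1 library, so the comparison has no replicate check and no test. The summed level of the 9 receptors was 490.2 CPM in P50_Depil5D against 508 CPM in P50 in T cells, a ratio of 0.965 (0.849 to 1.10), with 0.977 (0.795 to 1.20) in dendritic cells and 0.924 (0.637 to 1.32) in macrophages. Cxcr6, the leading T receptor, had a ratio of 1.03 (0.863 to 1.22) there. Single receptors differed more than their sum.

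Ccr7 was higher in P50_Depil5D in all 3 gates. The ratio was 2.29 in T cells (1.21 to 4.58, 37 against 14 UMIs), 1.87 in dendritic cells (1.32 to 2.69, 99 against 50 UMIs) and 5.70 in macrophages (1.37 to 33.3, 8 against 3 UMIs). The 3 gates come from the same pair of libraries and are not independent. In T cells the ratio was highest in the regulatory cells, at 219 CPM against 42.6 CPM, a ratio of 5.15 (1.73 to 20.7), where 7 cells held 20 UMIs against 2 cells with 4. Without the regulatory cells the T ratio was 1.45 (0.625 to 3.53).

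In dendritic cells the ratio was 1.42 in mature cells (0.907 to 2.26), 6 cells against 5, and 1.93 in type 2 cells (1.07 to 3.58). When each cell went to the class with the most markers, so that mixed cells entered too, the dendritic ratio was 1.24 (0.913 to 1.70). When classes came from clusters the T ratio was 1.57 (0.885 to 2.86). The macrophages of P50_Depil5D also carried more RNA of the 16 dendritic markers, 673 against 519.5 CPM (15 of the 16 had a UMI), and the part of this in their Ccr7 was not tested.

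Cxcr4 was lower in the dendritic cells of P50_Depil5D, at 44.7 against 106.8 CPM, a ratio of 0.419 (0.245 to 0.696, 23 against 52 UMIs). In type 2 cells it was 0.449 (0.252 to 0.771). The ratio lay between 0.362 and 0.484 under the 7 alternatives run, and its interval lay below 1 in each. In T cells Cxcr4 had a ratio of 0.738 (0.404 to 1.34) and in macrophages 0.729 (0.367 to 1.37), both intervals spanning 1. Ccr2 was lower in 2 subgates of P50_Depil5D. The ratio was 0.401 in Ctla2a T cells (0.169 to 0.882) and 0.631 in type 2 dendritic cells (0.401 to 0.981). At the level of the gate both intervals spanned 1. In regulatory T cells the Ccr2 ratio lay on the other side, at 1.51 (0.749 to 3.13), with an interval that spanned 1. Many pairs of receptor and subgate were compared, and the intervals were not adjusted for their number.

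Counted against all genes with at least 10 UMIs in the pair, a 2-fold difference on the log2(CPM + 10) scale was reached by 0 of 8 receptors in T cells, where 0.269% of all genes were 2-fold higher and 0.293% lower. In dendritic cells 1 of 4 receptors, Cxcr4, was 2-fold lower, beside 3.08% of all genes, and none was 2-fold higher, beside 1.07%. In macrophages 1 of 4, Ccr7, was higher, beside 4.47%, and 1, Cx3cr1, lower, beside 15.2%, on 2 against 14 UMIs with an interval that spans 1.

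Few receptors differed between P80 and P45 beyond counting error. The summed level of the 9 was 687 CPM in P80 against 762 CPM in P45 in T cells, a ratio of 0.902 (0.650 to 1.22), with 1.26 (0.770 to 1.95) in dendritic cells and 0.802 (0.424 to 1.39) in macrophages. Cxcr6 in T cells had a ratio of 1.35 (0.802 to 2.14).

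Ccr2 in dendritic cells ran through 182, 129, 290.0 and 347 CPM in P45, P50, P63 and P80, and the P80 level was 1.91 times that of P45 (1.05 to 3.22, 15 against 194 UMIs). The interval spanned 1 under 5 of 7 alternatives, among them TMM scaling (1.36, 0.745 to 2.30), leaving out cells with shared barcodes (1.51, 0.597 to 3.16), which were 9 of the 25 P80 cells, and cells of at least 500 genes (1.72, 0.876 to 3.08). The 13 keratinocyte markers summed to 739.7 CPM in the dendritic gate of P80 against 230 CPM in that of P45, and the part of this difference in the ratio was not tested.

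Cx3cr1 in macrophages ran through 136, 55.1, 73.5 and 0 CPM in P45, P50, P63 and P80. The 28 P80 cells had no UMI, against 98 UMIs in 292 P45 cells, which puts P80 at least 1.28-fold lower against a floor of 3 counts in its gate. The upper end of the interval of the ratio was 0.978, and it was above 1 without the shared barcodes (1.31), in cells of at least 500 genes (1.93), without cells of low pseudogene share (1.26) and in clusters (1.26). The macrophages of P80 were shallow, at a median of 838.5 UMIs a cell against 2252.5 in P45, and their keratinocyte markers summed to 1381 against 382 CPM. With such differences between the libraries, age and library cannot be told apart.

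A 2-fold lower level in P80 than in P45 was reached by 3 of 8 receptors in T cells (Ccr6, Ccr7 and Cx3cr1), beside 19.6% of all genes, by 1 of 4 in dendritic cells (Ccr7), beside 33.3%, and by 2 of 4 in macrophages (Ccr7 and Cx3cr1), beside 38.6%. None was 2-fold higher, beside 8.64%, 9.70% and 12.3% of all genes in these gates. TMM scaling moved every log2 ratio of P80 over P45 by -0.57 in T cells, -0.49 in dendritic cells and -0.75 in macrophages, and with it the summed level was 0.607 in T cells (0.437 to 0.822), 0.895 in dendritic cells (0.548 to 1.39) and 0.478 in macrophages (0.252 to 0.826), so that the intervals of T cells and macrophages then left out 1.

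**Figure D4:**
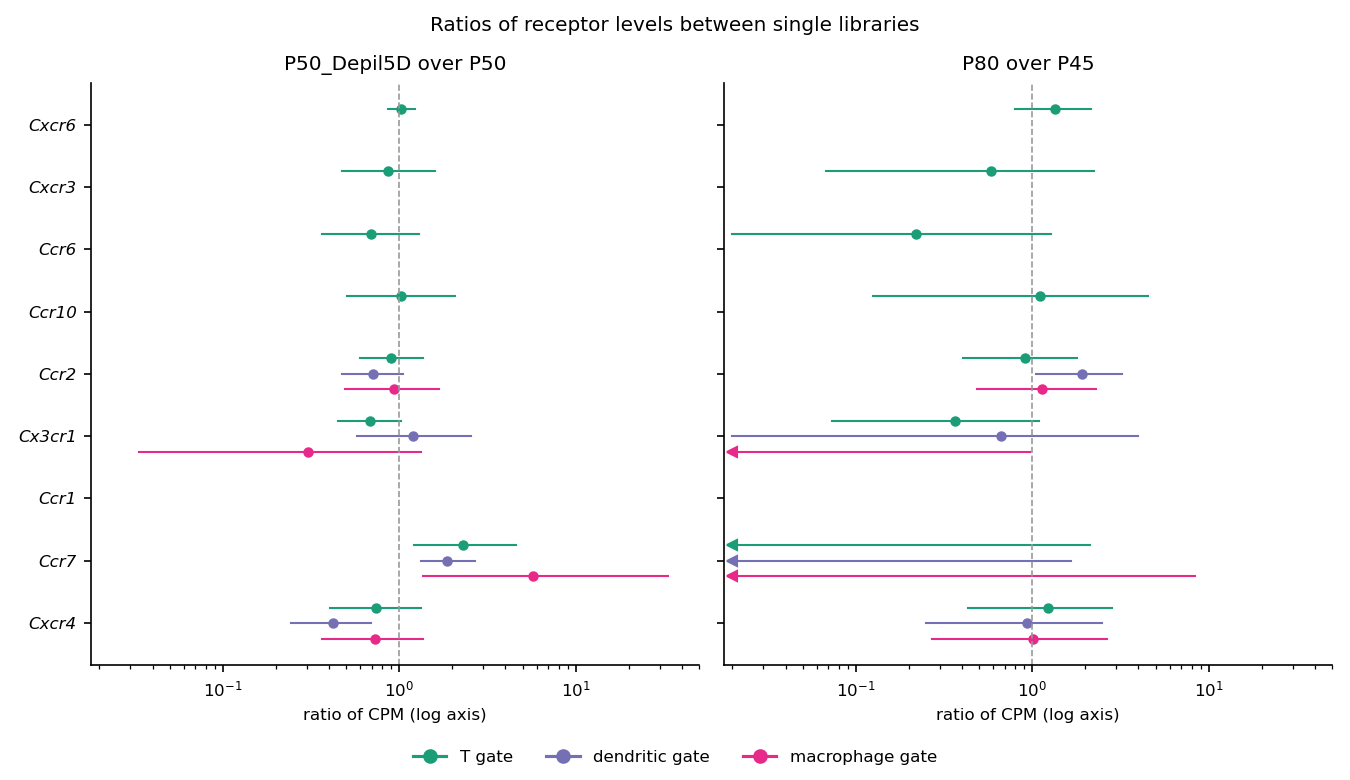
Ratio of each receptor's level (horizontal axis, logarithmic) in P50_Depil5D over P50 (left) and P80 over P45 (right) in the T, dendritic and macrophage gates, where the pair had at least 10 UMIs; points are ratios of CPM, lines exact 95% counting intervals drawn no further than the left edge, and arrowheads ratios of 0. Ccr7 lies right of 1 in all 3 gates on the left panel and Cxcr4 left of 1 in the dendritic gate, while on the right panel the intervals of Ccr2 in dendritic cells and Cx3cr1 in macrophages are the ones that leave out 1.

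The rest of the chemokine system gives the setting of these receptors, from lists of 16 other receptors, 19 ligands and 24 signalling genes. Of the other receptors 3 of 16 passed the filter of the 5-gate fit. Ccr8, a receptor of skin-resident T cells, was higher in T cells (log2 fold 5.76, edgeR adjusted p = 4.00e-05). Ccrl2, an atypical receptor that presents chemerin, was higher in macrophages (log2 fold 2.96, edgeR adjusted p = 0.0186). Its CPM was 111 in macrophages and 120 in the monocyte gate, the latter on 13 UMIs. Of the ligands 12 were tested. Macrophages had 7 higher and 1 lower, with Ccl8 and the Ccr2 ligands Ccl12 and Ccl7 at log2 folds of 9.63, 8.13 and 7.16 (edgeR adjusted p = 2.33e-17, 3.99e-13 and 6.09e-11). For comparison, 14.3% of all genes were higher in macrophages and 1.16% lower. Dendritic cells had 3 higher, beside 16.3% of all genes, Ccl9, Cxcl16 and Ccl2 (4.02, 3.68 and 2.73, edgeR adjusted p = 8.07e-06, 0.000182 and 0.0326), though the CPM of all 3 were higher in macrophages. In the NK gate, which had a sum in P50 alone, Ccl5 was higher by a log2 fold of 6.10.

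The median log2 fold of the ligands in macrophages was 3.13, against 0.73 for all genes, and in T cells -1.57 against 0.66. Of the signalling genes 22 were tested, and T cells had 6 higher and none lower, beside 18.9% of all genes higher, led by the lipid receptor S1pr4 (log2 fold 4.06), the G protein regulator Rgs1 (3.32) and the G protein subunit Gng2 (3.15), with edgeR adjusted p of 4.59e-05, 9.19e-13 and 9.77e-05. Macrophages had 6 higher and 1 lower, led by Arrb1, Klf2 and Rgs10, beside 14.3% of all genes higher and 1.16% lower. Rgs10 had 316.5 CPM in macrophages, against 235 in T, 205 in dendritic and 231 in monocyte-gate cells. Dendritic cells had 3 higher (Klf2, Rgs10 and Gnai2) and 2 lower, beside 16.3% of all genes higher and 1.34% lower. The dendritic CPM of Rgs10 and Gnai2, 205 and 611, was below that of T cells, 235 and 675. In the NK gate, with a sum in P50 alone, Rgs10 (log2 fold -9.56) and Gnai2 (-3.07) were lower. This sum enters the mean that the other gates were compared with, and its part in their folds was not tested.

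The epithelial side of several receptor pairs was in the keratinocyte gate. Ccl27a, the Ccr10 ligand, had 33898 UMIs there, or 6517 CPM, against 27.7 CPM in dendritic cells and 32.6 CPM in T cells. Ccl20, the Ccr6 ligand, was at 11.5 CPM in that gate and at or under 0.907 CPM in T cells, dendritic cells and macrophages. Cxcl16, the Cxcr6 ligand, was at 125 CPM in keratinocyte-gate cells, 178 CPM in macrophages, 110.2 CPM in dendritic cells and 8.06 CPM in T cells. Ccl8, which macrophages held at 5791 CPM, was at 38.1 CPM in dendritic cells and 23.8 CPM in T cells. The keratinocyte gate was not in the test.

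The genes most like each receptor over the 19 sums of a gate and library with at least 5 cells, by Pearson's r of log2(CPM + 10), are given as a description. The sums share libraries and gates, so a high r may reflect the gates alone. Cxcr6 went with Prkcz (r = 0.967) and the T cell kinase gene Zap70 (0.966), Ccr6 with Itpr3 (0.968) and Tnfrsf25 (0.958), and Ccr10 with Trp53i11 and F2r (0.980 each). Ccr2 went with Nptn (0.925) and Stard3nl (0.889), Ccr7 with Aldoc (0.900) and C730034F03Rik (0.852), Cxcr3 with Zfp398 (0.894) and Ahdc1 (0.887), Cxcr4 with Tmbim4 (0.814), and Cx3cr1 with Spg21 (0.845) and Adrm1 (0.819). Ccr1 had too few UMIs for this.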

How the data were processed

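Single cells of 5 libraries were read from the deposited matrices, whose values are whole-number UMI counts per gene and barcode, made by the authors. Per the submitters' processing notes the build was mm10 and Seurat was used. Neither the aligner nor the annotation and cell-calling steps used upstream are given in the sources used here. Coordinates came from GENCODE vM21, in which 27645 of 27998 gene IDs were found, and promoters from RefSeq (GRCm38.p6, 7 of 9 receptors matched). The members and the lists were chosen with earlier results of these data known. The named genes are all 9 receptors, at most 3 called genes of each other list with the largest log2 fold, and the 2 genes most like each receptor with at least 50 UMIs, of which 1 is not reported here. Ccl22, Folr2, Cd163 and the NK markers that split a gate were chosen after values were seen.

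Of 6223 barcodes 61 were removed because over 10% of their UMIs were mitochondrial; each of the others had at least 200 genes. No doublet caller was run: doublets must be taken to remain, and 1184 cells with mixed markers and 504 with under 2 markers were left out by the gates. Of the cells with mixed markers 541 had mostly dendritic ones. The T cell receptor constant genes and the ligand Cxcl11 were not used here. A subgate is the sublist with the most markers, at least 2 (1 for CD4 or CD8).

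UMIs were summed per gate and library over at least 5 cells and tested with edgeR 4.0.16 (R 4.3.3; TMM, filterByExpr, quasi-likelihood, library as a term, each gate against the mean of the others), with calls at an adjusted p under 0.05. The libraries differ in age and treatment, so the test asks for a gate difference common to them. With library as a term, its p-values rest on how gate differences vary between libraries, whose source animals are not stated. The NK and monocyte gates and the mature, type 1, gamma-delta 17 and CD4 or CD8 subgates had sums in fewer than 5 libraries. The SE given with a log2 fold is the absolute log2 fold divided by the square root of edgeR's F statistic. Intervals are exact Poisson, Clopper-Pearson and conditional 95% intervals (scipy 1.17.1, Python 3.11.15). Shares were thinned to 1000 UMIs a cell, which left out 303 T, 32 dendritic, 44 macrophage and 126 keratinocyte-gate cells. Alternatives were DESeq2 1.42.0, RLE factors, no filter, other gates, clusters (scanpy 1.11.5, igraph 0.11.9, clustered without the receptors), sums of at least 20 cells, leaving out each library, shared barcodes, shallow cells or cells under 0.5 of their library's median pseudogene share, TMM-scaled ratios and thinning to 500 UMIs. The fits without the NK gate or with 3 gates were added after seeing the data.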

Additional observations from a re-analysis of the deposited data

How the results depend on the processing

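The count of receptor calls over the 5 gates, 4 in all with 6 receptors tested, varied with the processing. It was 8 with gates of at least 3 markers (9 tested) and 2 in cells of at least 500 genes (5 tested). It was 16 with classes from clusters (6 tested) and 12 with sums of at least 20 cells (9 tested). The share of all genes called in these settings is not given here, so the counts describe the fits and not the receptors. The classes from clusters hold other cells than the gates. Clusters of 437 and 66 cells were named NK, with Cd8b1 and Ctla4 among their respective leading genes, against 12 cells in the NK gate. In the fits added after seeing the data the count was 7 without the NK gate (5 tested) and 10 with 3 gates (5 tested). It was 15 with 3 gates and no filter (9 tested) and 10 with 3 gates and no shared barcodes (5 tested). Leaving out 1 library gave 3 to 6 calls with 5 gates and 7 to 12 with 3 gates (11 without P80). Between T subgates 1 call with 1 receptor tested became 3 with no filter (9 tested) and 4 with sums of at least 20 cells (2 tested). It became 2 without cells of low pseudogene share (4 tested), and 1 to 2 without a library. Between dendritic subgates 2 calls with 2 receptors tested became 4 with no filter (8 tested) and stayed at 2 without a library. No direction was reversed in the alternatives run for the receptors called with 5 gates or between subgates. Of the calls added with 3 gates, Ccr7 in T cells (-1.50) and Cx3cr1 in dendritic cells (-0.96) had the opposite sign with 5 gates, at 2.03 and 1.17, where neither was called. Cxcr6 in T cells kept its call in 24 of 24 alternatives (log2 fold 3.10 to 7.16) and Ccr7 in dendritic cells in 23 of 23 (2.13 to 5.40). Ccr2 in T cells kept it in 17 of 24 (edgeR adjusted p up to 0.110 over the alternatives) and Cxcr4 in macrophages in 17 of 24 (up to 0.252). Cxcr6 in regulatory cells kept it in 14 of 14, and Ccr7 in mature and in type 1 cells in 13 of 13 each. The cause of the lost calls was not tested.

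The summed ratio of P80 over P45 in T cells, 0.902, was 0.607 with TMM scaling, that of macrophages, 0.802, was 0.478, and that of P50_Depil5D over P50 in macrophages, 0.924, was 1.71 with classes from clusters. Under clusters the macrophages of P50 had no Ccr7 UMI, so that ratio has no value. Thinned to 500 UMIs a cell, the shares were by construction lower: 12.7% for Cxcr6, 1.75% for Ccr6, 1.43% for Cxcr3 and 1.15% for Ccr10 in T cells, 7.36% for Ccr2 in dendritic cells, and 6.53% for Cxcr4 and 1.73% for Cx3cr1 in macrophages. No paired analysis was possible because each age and the depilated skin had 1 library, so that no number pairs them. The tests between gates had library as a term. Depth limits P63 and P80 most: with 54 T, 25 dendritic and 28 macrophage-gate cells in P80, a level of 0 is not evidence of absence.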
